A study of Mus musculus with 14 samples.

Results

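Plau, Plat, Plaur and Serpine2 are 4 genes of the plasminogen activator system. They were taken by gene symbol from a table of read counts for 48795 genes in 14 RNA sequencing libraries, and all 4 were among the 16408 genes with enough counts to test. The libraries came from fibroblasts that grew out of pieces of lung or dorsal skin of male C57BL/6J mice aged 8 to 10 weeks, kept unstimulated on plastic and harvested on day 14. Wild-type lung had 5 libraries (numbered 1, 23, 3, 4 and 5), Rel -/- lung 4 (7 to 10), wild-type skin 2 (11 and 22) and Rel -/- skin 3 (18 to 20). Rel -/- mice, called Rel-null below, carry a disrupted gene for c-Rel, an NF-kappaB transcription factor. The outgrowths were not sorted, so each library can hold RNA of other cell types. Nothing in the labels ties a library to its own animal, and a p-value here therefore reflects only how far these cultures differed, which may be technical.

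Plasminogen is an inactive protease precursor that circulates in blood. It is cut to plasmin by either of a pair of serine proteases, urokinase (Plau) or tissue-type activator (Plat), and plasmin digests fibrin, several matrix proteins and the precursors of other proteases. Urokinase acts mainly at the cell surface, where Plaur, a receptor anchored in the membrane by a glycolipid, holds it. Serpine2, also called protease nexin-1, is a secreted serpin that binds and inactivates thrombin, urokinase and tissue-type activator. In fibroblasts of skin and lung the system is known for its part in matrix turnover, wound repair and fibrosis.

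On the mouse build GRCm38, as annotated by GENCODE M21, Plau (ENSMUSG00000021822) lies on chromosome 14 from 20836660 to 20843385 and Plat (ENSMUSG00000031538) on chromosome 8 from 22757727 to 22782844. Plaur (ENSMUSG00000046223) lies on chromosome 7 from 24462484 to 24475968, and Serpine2 (ENSMUSG00000026249) on chromosome 1 from 79794197 to 79861180 on the minus strand. All 4 are protein-coding, and no other annotated gene overlaps them. Because the factor missing from the Rel-null mice binds DNA, the bases before the start of the RefSeq gene (build GRCm38.p6) are shown for Plaur and Serpine2, the 2 members matched in the RefSeq promoter table. For Plaur these are the 250 bases at chr7:24462233-24462482 (plus strand). For Serpine2 they are the 219 bases at chr1:79858697-79858915 (minus strand), since the other 31 bases of its window lie in an exon annotated by GENCODE. By GENCODE this whole window lies inside the Serpine2 gene, downstream of the annotated start at 79861180. Capitals mark a match to the AP-1 motif TGANTCA, which is its own reverse complement.
Plaur: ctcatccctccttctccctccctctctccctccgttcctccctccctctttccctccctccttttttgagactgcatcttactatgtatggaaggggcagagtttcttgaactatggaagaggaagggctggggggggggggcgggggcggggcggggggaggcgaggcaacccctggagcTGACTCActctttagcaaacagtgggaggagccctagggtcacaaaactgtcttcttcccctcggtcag
Serpine2: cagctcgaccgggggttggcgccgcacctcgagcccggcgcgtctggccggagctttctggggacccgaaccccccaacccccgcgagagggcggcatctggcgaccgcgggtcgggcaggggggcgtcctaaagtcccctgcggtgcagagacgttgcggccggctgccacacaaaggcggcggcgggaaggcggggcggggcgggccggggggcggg
The AP-1 match in Plaur begins 69 bases before the gene start, and 6.75% of all 32851 such windows hold one. No match to AP-1 was found in the 250 bases before the RefSeq start of Serpine2. Neither window held a match to the NF-kappaB consensus on either strand, and 3.90% of all windows hold an NF-kappaB match. These are matches of letters, not measured binding sites. That Serpine2 window is rich in G and C (78.8%, against 59.6% in Plaur and a median of 52.4% over all windows).

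Several libraries stood apart, and this bears on the members. Totals were 12780350 to 30987933 counts in 13 libraries and 2663437 in wild-type skin 22. In Rel-null lung 7, wild-type skin 11, wild-type lung 4 and Rel-null skin 18, 3.37% to 11.5% of the genes expressed in the same tissue (a mean of at least 5 CPM over its other libraries) had 0 counts, against at most 0.728% in the other 10. Rel was read at 9.08 and 8.72 CPM in Rel-null skin 19 and 20, close to the 11.4 and 9.28 CPM of wild-type skin 11 and 22, and had 1 count in Rel-null skin 18. The 5 wild-type lung libraries read Rel at 1.05 to 16.8 CPM and the 4 Rel-null ones at 0.0607 to 4.34 CPM, so the 2 groups overlapped. Counts per gene do not show whether these reads fall in the disrupted part of Rel. Every direction given for Rel-null cultures therefore follows the labels. Xist, which female cells express, read 624 CPM in wild-type skin 22 and 77.6 CPM in wild-type lung 1, against at most 0.611 CPM in the other 12, and this goes against the label of male mice. Rel-null lung 10 carries a treatment label that says skin, against its title and source. CPM here are counts per 1000000 counts of a library, with totals scaled by TMM factors of 0.832 to 1.17. Fibroblast markers (10 of 10 read in every group) summed to 11143 to 157774 CPM per library. The 12 leukocyte and macrophage markers summed to 5676 to 26089 CPM in lung libraries, but to 39.4 to 166 CPM in skin libraries. The 12 keratinocyte markers summed to between 10.7 and 54.9 CPM in lung, with Krt5, Krt15, Krt1 and Dsg3 at 0 counts in every lung library. They summed to 79.1 and 21.8 CPM in wild-type skin 11 and 22, and to 2676, 1088 and 1863 CPM in Rel-null skin 18, 19 and 20.

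Urokinase was the member with the widest range of group means. Plau read 25.8 and 53.5 CPM in wild-type skin 11 and 22, and 346, 250.5 and 456 CPM in Rel-null skin 18, 19 and 20. In wild-type lung it read 76.4, 101, 106, 175 and 66.5 CPM (libraries 1, 23, 3, 4 and 5), and in Rel-null lung 128, 55.0, 112 and 67.0 CPM (7, 8, 9 and 10). The 3 Rel-null skin libraries were the highest of all 14 and both wild-type skin libraries the lowest, while the lung groups overlapped throughout. Of all genes tested, 2.9% had the 3 Rel-null skin libraries above the other 11. The group means were 39.6 ± 19.5 CPM in wild-type skin (SD, n = 2), 351 ± 103 in Rel-null skin (n = 3), 90.4 ± 35.0 in Rel-null lung (n = 4) and 105 ± 42.6 in wild-type lung (n = 5). The count of 167 in wild-type skin 22 gives a 95% Poisson interval of 45.6 to 62.2 CPM, which covers counting error only.

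**Figure D1:**
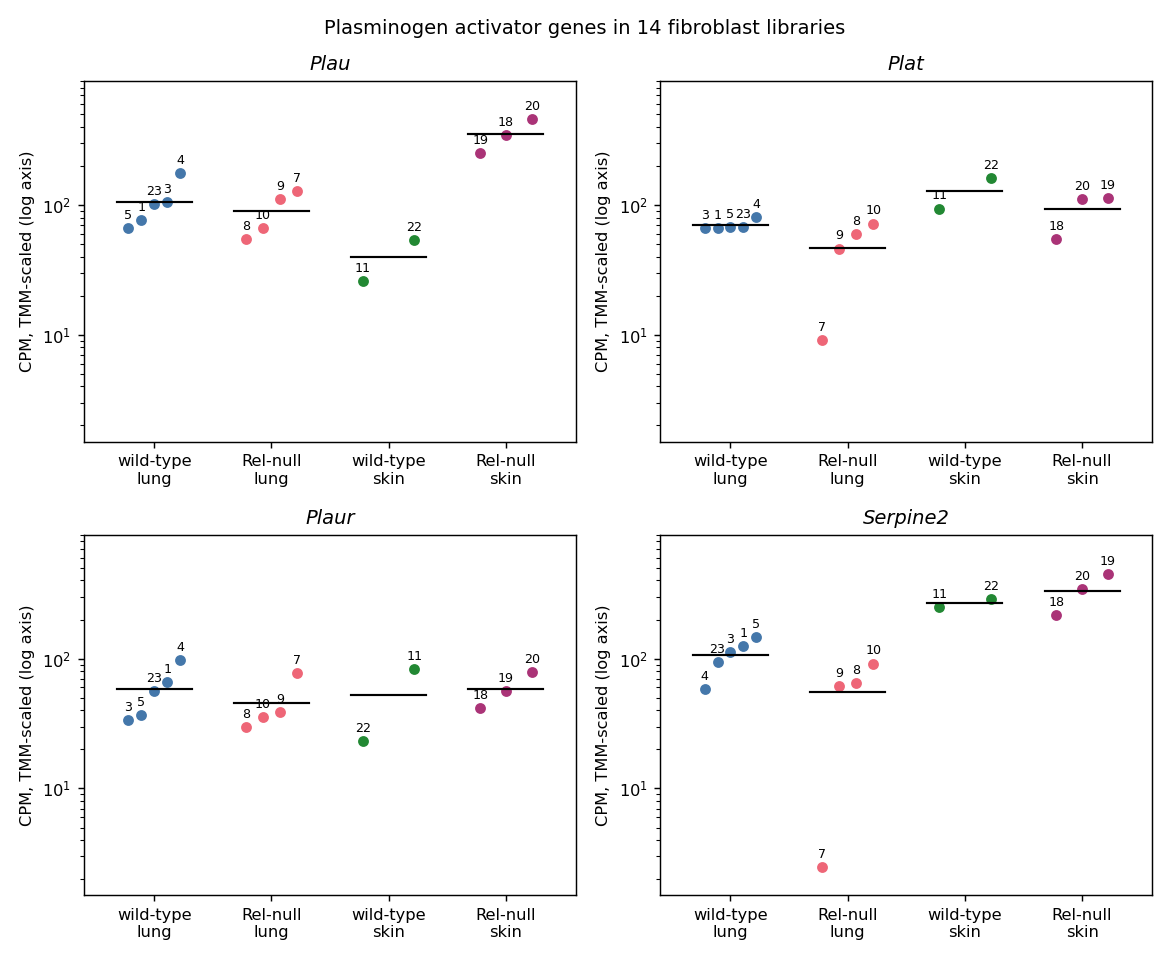
Expression of the 4 members in each library, in CPM on a log axis. Points are single libraries with their label number, and black lines are group means. Plau lies at 250.5 to 456 CPM in Rel-null skin, above the other 11 libraries, and Rel-null lung 7 has the lowest Plat (9.04 CPM) and Serpine2 (2.49 CPM).

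In skin, Plau had a log2 fold change of 3.16 ± 0.54 (SE) for Rel-null against wild type, an 8.93-fold ratio with a 95% interval of 2.02 to 4.30 on the log2 scale. The adjusted p by edgeR's quasi-likelihood test with Benjamini-Hochberg adjustment over all genes was 0.0654, so the difference missed the threshold of 0.05. The p of Plau ranked 6 of 16408, while 11.7% of all genes had a larger absolute log2 fold change. By edgeR 0 of 4 members passed in skin, as did 0% of all genes. At an unadjusted p under 0.05 it was 1 of 4, against 6.24% of all genes. Plau was the one member whose skin groups did not overlap, as for 14.8% of all genes in that direction. In the exact permutation test its p was 0.1, the smallest that 2 against 3 libraries allow (two-sided, adjusted p 0.2 over 16 tests of member levels). DESeq2 called Plau alone of the 4 (log2 fold change 3.10, adjusted p 1.0e-05), and 1.09% of the 13987 genes to which it gave an adjusted p. Limma-voom with quality weights called none of the 4 (3.51 for Plau, adjusted p 0.0586), and 1.83% of all genes. Single libraries decided the edgeR call. Without wild-type skin 22 the value was 3.76 with an adjusted p of 0.00831, and without Rel-null lung 7 it was 3.20 with an adjusted p of 0.0286. Without wild-type skin 11 it was 2.76 with an edgeR adjusted p of 0.279.

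The Plau difference was of similar size against Rel-null skin 18, with 1 Rel count, and against 19 and 20. It was 3.13 (edgeR adjusted p 0.0602) with Rel-null skin 18 as the lone Rel-null skin library, and 3.23 (0.159) without it. A group of 1 library has no spread of its own and is assumed to vary like the others. Keratinocyte markers were also higher in Rel-null skin, at 10 of 11 tested, with a median log2 fold change of 5.46, though 0 of 11 passed. The 10 lung epithelium markers summed to 430 to 733 CPM there against 8.32 and 49.3 CPM, but 4 of 9 tested were higher (median log2 fold change 0.00), and Sftpc, Sftpb, Sftpa1 and Cldn18 were at 0 in all skin libraries. Within Rel-null skin, library 19 was lowest in both Plau (250.5 CPM) and the keratinocyte marker sum (1088 CPM). Plau was highest in 20 and the marker sum in 18. Of the wild-type skin libraries, 11 had the higher keratinocyte marker sum (79.1 against 21.8 CPM) and the lower Plau. Keratinocytes are themselves known to make urokinase, and the part of keratinocytes in the Plau values was not tested. In bulk samples such as these, a change in the share of a cell type and a change in RNA per cell cannot be told apart. Leukocyte markers, at 39.4 and 118 CPM in wild-type and 117 to 166 CPM in Rel-null skin, also stood higher at 10 of 12 genes (median 1.53).

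**Figure D2:**
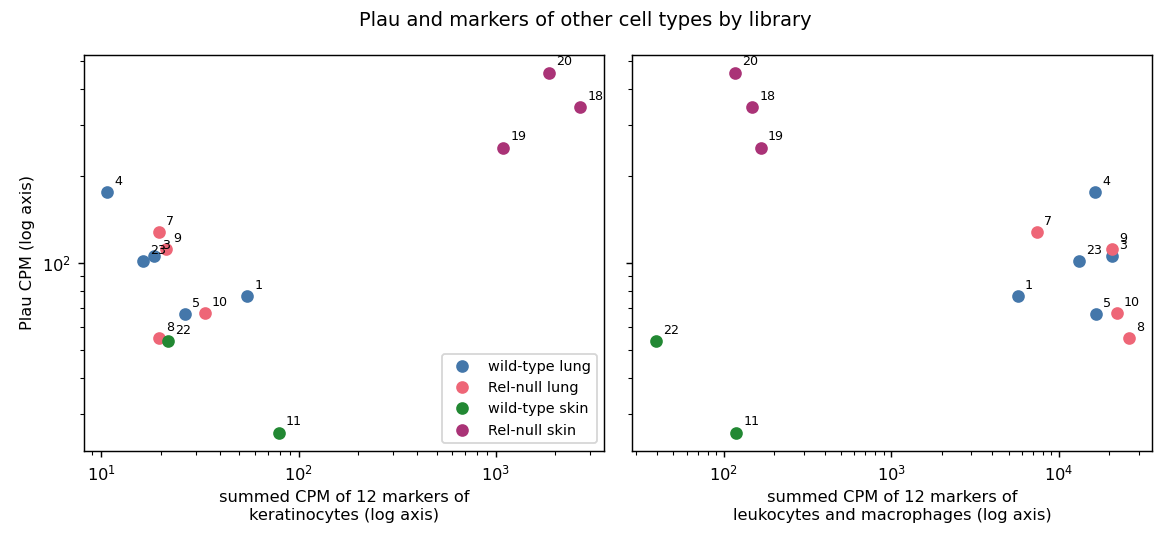
Plau in CPM against the summed CPM of 12 keratinocyte markers (left) and 12 leukocyte and macrophage markers (right), on log axes, with each point a library. Rel-null skin libraries lie apart on the left at 1088 to 2676 CPM of keratinocyte markers, and lung libraries lie apart on the right at 5676 CPM or more of leukocyte markers.

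In lung, Rel-null against wild type gave -0.22 ± 0.34 for Plau on the log2 scale (interval -0.95 to 0.51, edgeR adjusted p 1.00). The skin effect exceeded the lung effect by 3.38 ± 0.62 (interval 2.05 to 4.70), with an adjusted p of 0.166 in edgeR and 4.5e-04 in DESeq2. Its edgeR p ranked 5 of all genes, while 13.3% of them had a larger absolute value. By edgeR 0 of 4 members passed for this difference (0% of all genes) and 1 had an unadjusted p under 0.05 (4.67%). DESeq2 called 1 of 4 (0.673% of the 14869 genes to which it gave an adjusted p) and limma-voom none (1.06% of all genes). Without wild-type skin 22 the Plau value was 3.98 with an edgeR adjusted p of 0.0106, and without wild-type skin 11 it was 2.96 with an adjusted p of 0.416. Either omission leaves 1 wild-type skin library. In wild-type cultures Plau was lower in both skin libraries than in every lung library, as were 10.7% of all genes. Its log2 fold change of skin against lung was -1.42 ± 0.47 (interval -2.41 to -0.43, edgeR adjusted p 0.142), and 0 of 4 members passed there, against 2.97% of all genes. Plau alone had an unadjusted p under 0.05, as had 13.2% of genes, and neither DESeq2 (9.2% of genes) nor limma-voom (4.03%) called a member. In Rel-null cultures the direction was the opposite. Plau rose by 1.96 ± 0.39 in skin over lung (3.88-fold, edgeR adjusted p 0.00679), with all 3 skin libraries above all 4 lung libraries, as for 11.6% of genes. The call held when each library was left out in turn and under each other scaling and filter, and ended with Rel-null skin 18 alone (1.94, adjusted p 0.0851). This comparison and the one of genotypes in skin share the 3 Rel-null skin libraries. Between Rel-null tissues all 11 keratinocyte markers tested were higher in skin (7 passed) and all 12 leukocyte markers lower (11 passed). Between wild-type tissues, where Plau was lower in skin, 7 of 11 keratinocyte markers were higher there (median log2 fold change 2.38). Of the 11, 4 passed, counted in either direction. Their sums were low in both tissues, at 79.1 and 21.8 CPM in wild-type skin and 10.7 to 54.9 CPM in wild-type lung. The part of these markers in the Plau values was not tested.

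**Figure D3:**
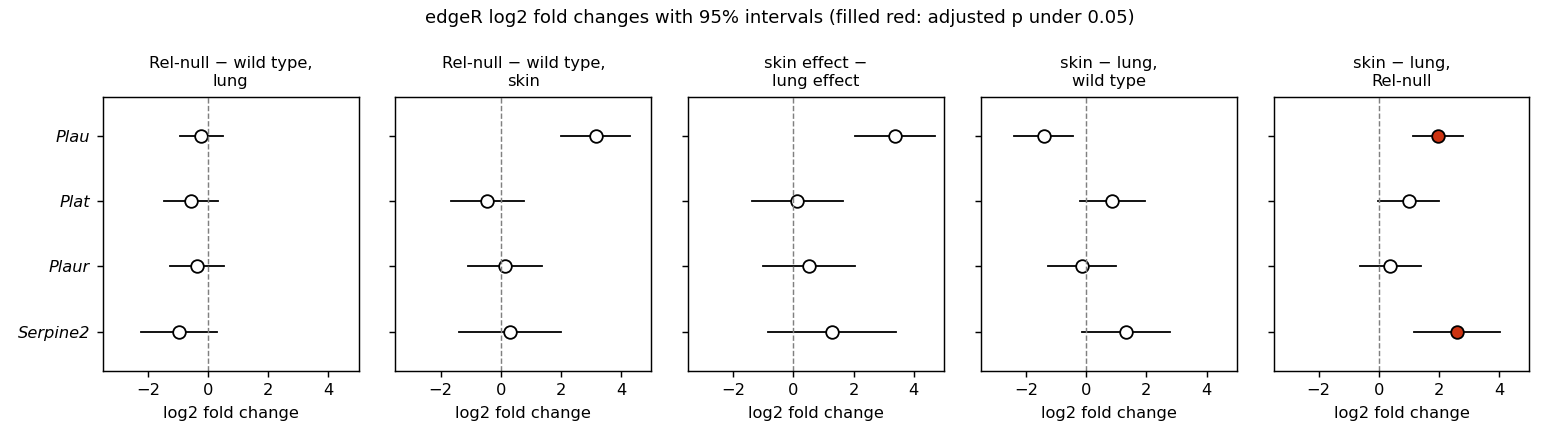
Log2 fold changes of the 4 members by edgeR in 5 comparisons, with 95% intervals as lines. Filled red points had an adjusted p under 0.05. They are Plau (1.96) and Serpine2 (2.60) for skin against lung in Rel-null cultures, and Plau in skin (3.16) is the largest genotype value.

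Tissue-type activator had a narrower range of group means than urokinase. Plat read 66.3, 68.1, 66.0, 80.9 and 67.2 CPM in wild-type lung 1, 23, 3, 4 and 5. The Rel-null lung libraries 7, 8, 9 and 10 gave 9.04, 60.0, 46.1 and 71.9 CPM. The wild-type lung libraries spanned a narrow range, and in Rel-null lung 7 the 149 counts set it far below the rest. Skin libraries read 93.8 and 160.4 CPM in wild-type 11 and 22, and 54.6, 113 and 112 CPM in Rel-null 18, 19 and 20. By edgeR the Rel-null minus wild-type value was -0.57 ± 0.43 in lung (interval -1.48 to 0.33, adjusted p 0.929) and -0.45 ± 0.57 in skin (interval -1.65 to 0.76, adjusted p 0.950). The exact permutation p of the lung levels was 0.0397 and 0.131 after adjustment over the 16 tests. Without Rel-null lung 7 the edgeR lung value was -0.24. In lung 0 of 4 members passed by edgeR, as did 0% of all genes, and 0 of 4 had an unadjusted p under 0.05 (6.31% of genes). DESeq2 (0.317% of genes) and limma-voom (0.0366%) called no member in lung.

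Both wild-type skin libraries lay above the 5 wild-type lung libraries in Plat, which 7.12% of all genes did in that direction, with a log2 fold change of 0.86 ± 0.51 (edgeR adjusted p 0.524). The value was 0.43 without wild-type skin 22. In Rel-null cultures skin exceeded lung by 0.99 ± 0.48 (interval -0.02 to 2.00, adjusted p 0.272). Rel-null skin 18, at 54.6 CPM, lay within the range of the Rel-null lung libraries. Without the 4 libraries with the most genes at 0 counts, Plat was called higher in skin in both genotypes (1.25 in wild type, edgeR adjusted p 0.0247, and 0.97 in Rel-null, 0.0217), with wild-type skin 22 as the lone wild-type skin library.

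The urokinase receptor passed in no comparison by edgeR. Plaur read 66.6, 56.6, 33.5, 97.9 and 37.0 CPM in wild-type lung 1, 23, 3, 4 and 5, and 77.1, 29.5, 38.8 and 35.2 CPM in Rel-null lung 7, 8, 9 and 10. Skin gave 82.5 and 23.0 CPM in wild-type 11 and 22, and 42.0, 55.9 and 78.2 CPM in Rel-null 18, 19 and 20. All 4 groups overlapped, and both wild-type skin libraries lay outside the Rel-null skin range, on opposite sides of it. The log2 fold changes by edgeR were -0.37 ± 0.42 in lung (interval -1.27 to 0.53, adjusted p 1.00) and 0.14 ± 0.57 in skin (interval -1.08 to 1.36, adjusted p 1.00). The skin value turned to -0.49 without wild-type skin 22, which had 72 Plaur counts, and was 1.40 without wild-type skin 11. Skin against lung gave -0.13 ± 0.53 in wild-type cultures (interval -1.26 to 0.99) and 0.38 ± 0.48 in Rel-null cultures (interval -0.63 to 1.39). Limma-voom called the latter (0.92, adjusted p 0.0174). Without the 4 libraries with the most genes at 0 counts, Plaur stood at 1.63 ± 0.51 in skin (edgeR adjusted p 0.224), 2.09 ± 0.58 for the difference between tissues (0.26) and 1.01 ± 0.33 for Rel-null tissues (0.0687), with wild-type skin 22 as the lone wild-type skin library. In lung, wild-type 4 and Rel-null 7 were the highest of their groups for both Plau and Plaur, and both are among the 4 libraries with the most genes at 0 counts.

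Protease nexin-1 read higher in every skin library than in every lung library. Serpine2 read 251 and 287 CPM in wild-type skin 11 and 22 and 216, 446 and 343 CPM in Rel-null skin 18, 19 and 20. Lung libraries read 125, 94.4, 113, 58.7 and 146 CPM in wild type (1, 23, 3, 4 and 5) and 2.49, 64.7, 62.0 and 91.7 CPM in Rel-null 7, 8, 9 and 10. The lowest skin library lay above the highest lung library, a separation that 1.79% of all genes showed in that direction. Rel-null lung 10, with the conflicting label, lay among the lung libraries.

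After adjustment no member level passed the exact permutation test, with p 0.0571 and adjusted p 0.131 for Serpine2 in Rel-null skin against lung. In Rel-null cultures Serpine2 rose by 2.60 ± 0.68 on the log2 scale in skin over lung (6.06-fold, interval 1.16 to 4.04, edgeR adjusted p 0.0356), and 19.7% of genes had a larger absolute change. With Plau it made 2 of 4 members past the threshold, against 5.05% of all genes. DESeq2 called the same 2 (11.9% of genes), and limma-voom called all 4 members (27.4% of genes). Leukocyte markers, read at 5676 CPM or more in lung, moved the other way, and their part in the result was not tested. Rel-null lung 7, with 41 Serpine2 counts (95% interval 1.79 to 3.38 CPM), did not carry the call: without it the value was 2.24 with an adjusted p of 0.00104. The edgeR call ended without Rel-null lung 8 (2.68, adjusted p 0.0848), Rel-null lung 9 (2.70, 0.0770), Rel-null skin 19 (2.34, 0.119) or Rel-null skin 20 (2.62, 0.0904), and in a fit of only these groups (2.60, 0.126). In wild-type cultures the skin value was 1.32 ± 0.69 (interval -0.14 to 2.79, edgeR adjusted p 0.450). Without Rel-null lung 7, which is no part of that comparison but shares its estimate of spread, it was 1.32 with an adjusted p of 0.0303.

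Between genotypes Serpine2 did not pass. The edgeR value was -0.96 ± 0.60 in lung (interval -2.22 to 0.31, adjusted p 0.868) and -0.56 without Rel-null lung 7. It was 0.32 ± 0.80 in skin (interval -1.38 to 2.01, adjusted p 1.00) and turned to -0.33 with Rel-null skin 18 alone. The genotype effects of skin and lung differed by 1.27 ± 1.00 (adjusted p 1.00). Rel-null lung 7 held the lowest Serpine2 and Plat of all 14 libraries, and 14.5% of all genes were lowest there. Its fibroblast markers summed to 23648 CPM, the lowest sum of the lung libraries. The part of its many genes at 0 counts (11.5%) in its low Serpine2 and Plat was not tested.

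Ratios between members within a library do not depend on the scaling of library totals. The log2 ratio of Plau counts to Serpine2 counts was -3.28 and -2.42 in wild-type skin 11 and 22, and 0.68, -0.83 and 0.41 in Rel-null skin 18, 19 and 20. Urokinase reads thus stood lower against those of its inhibitor in both wild-type skin libraries than in the Rel-null ones, by 2.94 on average (exact permutation p 0.1, the smallest possible, adjusted p 0.2 over 16 tests of ratios). Both were also below all 5 wild-type lung libraries, at -1.13 to 1.58 (exact permutation p 0.0476, again the smallest possible, adjusted p 0.190). Rel-null lung libraries ran from -0.45 to 5.67, the top value being library 7.

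Urokinase against tissue-type activator gave the widest gap in skin. The log2 ratio of Plau to Plat was -1.86 and -1.58 in wild-type skin 11 and 22 and 1.15 to 2.67 in Rel-null skin, a difference of 3.67 (exact permutation p 0.1, adjusted p 0.2). Wild-type lung libraries lay between, at -0.01 to 1.12, and Rel-null lung ran from -0.13 to 3.82, where library 7 again was the top value and lay above all skin libraries. The log2 ratio of Plat to Serpine2 was lower in Rel-null skin (-1.98 to -1.62) than in wild-type skin (-1.42 and -0.84) and in Rel-null lung (-0.43 to 1.85). Skin minus lung was -2.10 for that ratio in Rel-null cultures (exact permutation p 0.0286, the smallest possible, adjusted p 0.190). For Plau to Plaur the range was 2.16 to 3.04 in Rel-null skin, against -1.68 and 1.21 in wild-type skin and 0.73 to 1.52 in Rel-null lung. Urokinase reads thus stood highest against those of their receptor in Rel-null skin. No ratio passed after adjustment. The ratios with Plau share its counts, so they are not separate evidence beside its levels. How many other gene pairs separate the same groups was not counted.

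**Figure D4:**
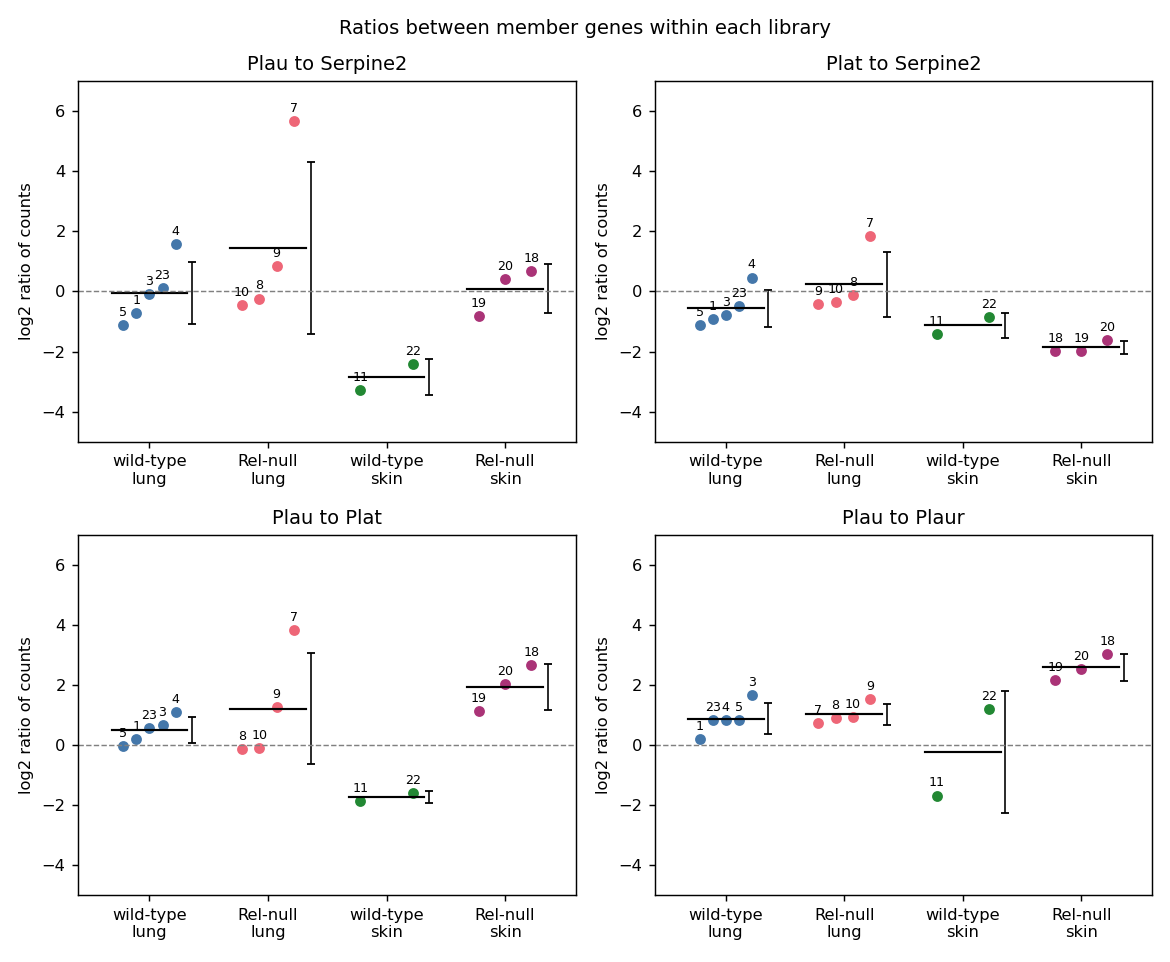
Log2 ratios of counts between pairs of members within each library. Points are libraries with their label number, black lines group means and bars the SD. Wild-type skin has the lowest Plau to Serpine2 (-3.28 and -2.42) and Plau to Plat ratios (-1.86 and -1.58), and Rel-null lung 7 the highest Plau to Serpine2 ratio (5.67).

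Levels of different genes were compared per kilobase of annotated exon (2367 bases for Plau, 6241 for Plat, 2617 for Plaur and 8287 for Serpine2, all exons of a gene merged). In wild-type lung Plau led with 44.4 ± 18.0 CPM per kilobase (SD, n = 5), followed by Plaur with 22.3 ± 9.93, Serpine2 with 12.9 ± 3.98 and Plat with 11.2 ± 1.01. Rel-null lung had the same leaders, Plau at 38.2 ± 14.8 and Plaur at 17.3 ± 8.28 (n = 4), with Plat at 7.49 ± 4.37 and Serpine2 at 6.66 ± 4.54. In wild-type skin the order was Serpine2 (32.4 ± 3.09), Plat (20.4 ± 7.54), Plaur (20.2 ± 16.1) and Plau (16.7 ± 8.26, n = 2). In Rel-null skin Plau was first at 148 ± 43.5, ahead of Serpine2 at 40.4 ± 13.9, Plaur at 22.4 ± 6.99 and Plat at 14.9 ± 5.35 (n = 3). Neighbours in each order overlapped in their libraries, except Plau and Serpine2 in Rel-null skin (106 or more against at most 53.8) and Serpine2 and Plat in wild-type skin (30.2 or more against at most 25.7). So per kilobase Plau was the highest of the 4 in mean level in 3 groups and the lowest in wild-type skin. Merged exon lengths exceed those of the main transcript where alternative ends are annotated, so these orders are approximate.

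The wider system was followed through 23 other genes, of which 16 were tested. Plasminogen itself (Plg), which is made mainly by the liver, had 0 counts in every library. A floor of 3 counts allows up to 0.1 to 0.96 CPM, depending on the library. By edgeR 0 of 16 passed between genotypes in lung (4 higher, 12 lower, median log2 fold change -0.49, against -0.08 over all genes) or in skin (11 higher, 5 lower, median 0.17, against 0.01). At an unadjusted p under 0.05 it was 4 of 16 in lung, against 6.31% of all genes, and 2 of 16 in skin, against 6.24%. For skin against lung in wild-type cultures 0 of 16 passed (2.97% of all genes) and 2 had an unadjusted p under 0.05 (13.2%). In Rel-null cultures 1 of 16 passed (5.05% of all genes) and 4 had an unadjusted p under 0.05 (19.1%). The gene that passed was Serpinb2, an inhibitor of urokinase and tissue-type activator, which read 61.7, 62.4 and 164 CPM in Rel-null skin 18, 19 and 20 and 1.08 to 7.52 CPM in the Rel-null lung libraries. Its log2 fold change was 4.44 with an edgeR adjusted p of 0.0129. Wild-type skin 11 and 22 differed widely in Serpinb2, at 160.5 and 2.24 CPM.

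Genes that bind or activate plasminogen at the cell surface gave no call. Annexin A2 (Anxa2) and its partner S100a10 form a surface site for plasminogen and tissue-type activator. Anxa2 read 960.2 ± 179 CPM in wild-type skin, against 1386 ± 163 with Rel-null (edgeR log2 fold change 0.53, adjusted p 0.891), and S100a10 110 ± 2.18 and 204 ± 24.8 (0.89, 0.813). In lung Anxa2 gave 0.59 (edgeR adjusted p 0.834) and S100a10 1.25 (0.781). Rel-null lung 7 had the highest Anxa2 (2013 CPM) and S100a10 (507 CPM) of the lung libraries. The receptor Plgrkt gave 0.58 in skin and -0.88 in lung. The enolase Eno1, which can bind plasminogen, gave 0.66 and -0.04, and has near-identical copies in the genome that make its read assignment uncertain. Lrp1, the endocytic receptor that clears protease and serpin complexes, read 3067 ± 770 CPM in wild-type lung, against 1575 ± 1052 with Rel-null (-0.96, adjusted p 0.781). Mrc2, a collagen uptake receptor that associates with the urokinase receptor, read 542 ± 89.6 and 291 ± 131 CPM there (-0.90, adjusted p 0.781). Rel-null lung 7 had the lowest Plgrkt (3 counts), Lrp1 (498 CPM) and Mrc2 (150 CPM) of the lung libraries. Its part in these lung values was not tested.

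St14, the membrane protease matriptase of epithelial cells, can activate urokinase. It read 0.212 and 2.24 CPM in wild-type skin 11 and 22, 125, 50.1 and 84.0 CPM in Rel-null skin 18, 19 and 20, and at most 8.67 CPM in lung. The 3 Rel-null skin libraries lay above the other 11, as for 2.9% of all genes, but the log2 fold change in skin of 6.41 did not pass (edgeR adjusted p 0.664). St14 thus stood high in the same 3 libraries as Plau and the keratinocyte markers. Between genotypes in skin the log2 fold change was 0.19 for Serpinb6a, 0.04 for Serpinb8, -0.80 for Lrpap1 and -1.15 for the growth factor Hgf. In lung it was 0.74, -0.49, -0.45 and -0.49 in that order.

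**Figure D5:**
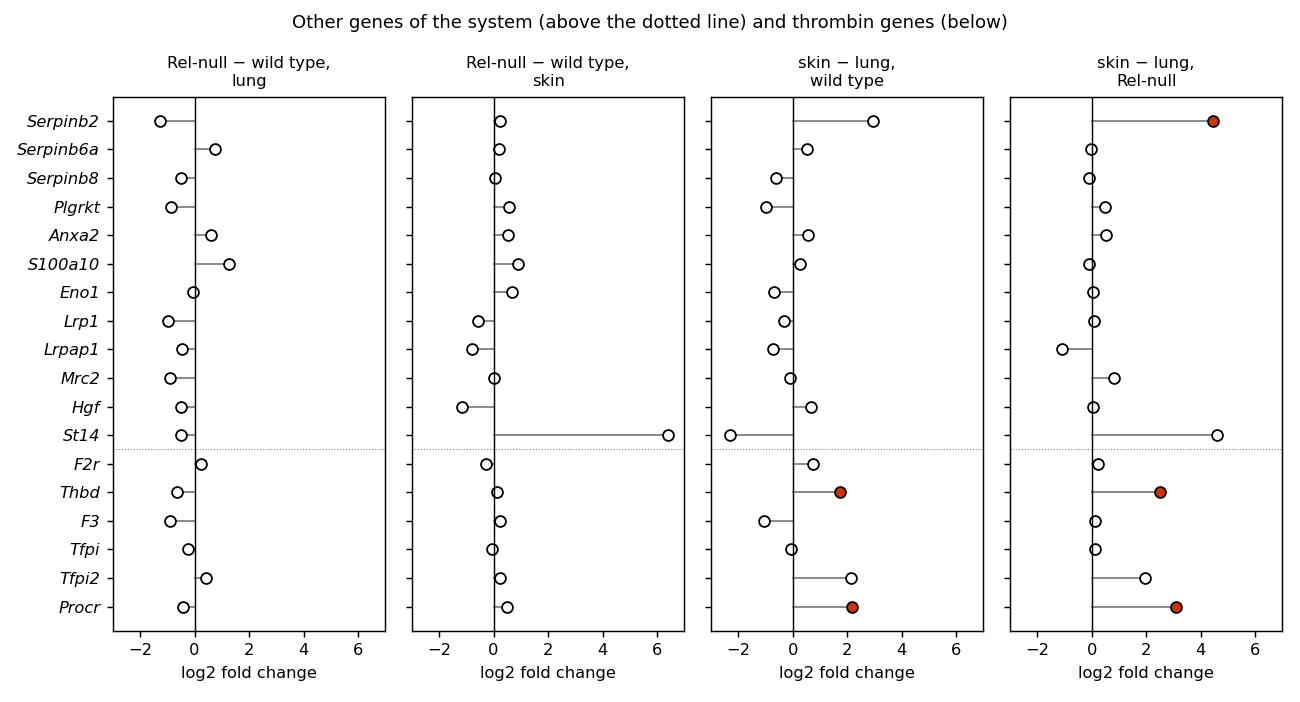
Log2 fold changes by edgeR of 12 other genes of the plasminogen system (above the dotted line) and 6 genes of thrombin signalling and coagulation start (below), in 4 comparisons. Filled red points had an adjusted p under 0.05, which were Serpinb2, Thbd and Procr for skin against lung, and St14 has the largest genotype value in skin (6.41).

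Serpine2 also inhibits thrombin, so 10 genes of thrombin signalling and coagulation start were listed, of which 9 were tested. By edgeR 0 of 9 passed between genotypes in either tissue, and 0 had an unadjusted p under 0.05. For skin against lung 2 rose in each genotype, against 0.902% of all genes higher in wild-type and 1.82% in Rel-null cultures. Thrombomodulin (Thbd), which turns thrombin towards protein C activation, rose by 1.72 in wild-type cultures (edgeR adjusted p 0.0250), from 188 to 298 CPM in lung to 1222 and 326 CPM in skin 11 and 22. In Rel-null cultures it rose by 2.50 (adjusted p 0.0010), from 123 to 210.3 CPM to 633 to 1182 CPM. Procr, the protein C receptor, rose by 2.17 (edgeR adjusted p 0.0327) and 3.09 (0.00197). In wild-type skin it read 137 CPM in library 11 and 24.0 in library 22, the latter within the lung range of 13.1 to 32.1 CPM. The thrombin receptor F2r read 189 ± 31.2 CPM in lung and 316 ± 31.1 CPM in skin of wild type (0.74, edgeR adjusted p 0.433), and tissue factor (F3) gave -1.03 in wild-type and 0.11 in Rel-null cultures. In the same order Tfpi gave -0.05 and 0.13 and Tfpi2 2.14 and 1.94, and neither gene passed.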

How the data were processed

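The authors deposited raw read counts per Ensembl gene in 1 table with 14 columns, each matched to a sample by its title number. GRCm38, STAR 2.4.2a, Trimmomatic 0.33 and FastQC 0.11.2 are listed, per the submitters' processing notes, with no role or order. The counting tool and strand setting were not given in sources used here. Symbols, positions and exon lengths came from GENCODE M21, which held 48349 of the 48795 identifiers. From the counts, edgeR 4.0.16 (R 4.3.3) fitted 4 group means to all 14 libraries after filterByExpr (minimum count 10, minimum total 15) and TMM, with quasi-likelihood F tests and Benjamini-Hochberg adjustment over 16408 genes at 0.05. The SE is the log2 fold change divided by the root of F. One spread was estimated over the 4 groups, as wild-type skin has only 2 libraries. The common dispersion was 0.948. Levels (log2 CPM, 0.5 added to the count) and ratios were compared by two-sided exact permutation tests, adjusted over 16 each. The fit was also run on simulated counts with a dispersion well below 0.948. That run therefore does not show how the fit performs on data as dispersed as these. Totals of 2663437 to 30987933 counts set the precision of single libraries.

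Listed genes were named where their mean over all libraries was at least 10 CPM, and the 5 genes most alike to each member by Pearson r. One gene of the plasminogen list that meets this is not reported here by name, though it is in the counts. The members and lists were chosen with earlier results of these data known. Alternatives were RLE, upper-quartile and no factors, 2 other filters (none, and 1 CPM in 4 libraries), DESeq2 1.42.0, limma-voom (limma 3.58.1), fits of only the groups compared, each library left out, and 3 sets of libraries left out. Those for member levels were added after the data were seen. Shares of genes called by DESeq2 are over the genes to which it gave an adjusted p, 13398 to 16094 depending on the comparison.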

Additional observations from a re-analysis of the deposited data

Results flagged for a closer look

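Single libraries that lay far from their group were sought in the log2 CPM of the 4 members and in the 4 log2 ratios, in the 5 wild-type and the 4 Rel-null lung libraries, by Dixon's criterion at the 95% level. Of these 16 sets of values 3 met it, where chance alone gives about 1 in 20. The sets are not independent, since the ratios use the same counts as the levels. Serpine2 in Rel-null lung 7 had a log2 CPM of 1.33, and its gap to the nearest library was 0.891 of the group's range (critical value 0.829). The Plat to Serpine2 log2 ratio of the same library was 1.85 (gap 0.860 of the range), and it uses the same Serpine2 count. Plat in wild-type lung 4 had a log2 CPM of 6.34, a gap of 0.843 of a narrow range (critical value 0.71). Both libraries are among the 4 with the most expressed genes at 0 counts, at 11.5% in Rel-null lung 7 and 5.78% in wild-type lung 4.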

How the results depend on the processing

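No paired analysis was possible because the replicate numbers in the labels are not shared between groups. Of 496 member fold changes recomputed by alternative fits, 453 kept their direction and side of the threshold.

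Plau in skin passed with no low-count filter (3.23), in DESeq2 (3.10) and without the 2 libraries in which Xist was read (3.80; wild-type lung 1 and wild-type skin 22), as did its difference between tissues (3.42, 3.30 and 4.10). Without Rel-null skin 19 and 20 Plau and Serpine2 in Rel-null skin against lung were no longer called (1.94 and 1.97), nor was Serpine2 in a fit of only these groups (2.60). Limma-voom called Plat (0.95) and Plaur (0.92) there. Without the 4 libraries with the most genes at 0 counts, skin against lung passed for Plat (1.25 in wild type, 0.97 in Rel-null) and for Serpine2 in wild type (1.25).

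Directions of small, uncalled values turned. Without the Xist libraries Plat in skin was 0.026, Plaur in skin -0.45, its difference between tissues -0.15 and its wild-type tissue value 0.53. By limma-voom Plaur was -0.10 in skin and 0.78 for wild-type tissues. Without Rel-null skin 19 and 20 Plaur in skin was -0.34, Serpine2 in skin -0.33, the Plat difference between tissues -0.66 and Plaur between Rel-null tissues -0.11. The Plat difference was -0.28 without the 4 libraries with the most genes at 0 counts. For mean log2 CPM, without the Xist libraries Plaur was -0.54 in skin and 0.69 for wild-type tissues. Without Rel-null skin 19 and 20 it was -0.059 in skin and -4.6e-05 between Rel-null tissues, and Serpine2 in skin was -0.32.

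Leaving out 1 library at a time gave ranges of -0.44 to 0.088 for Plau between genotypes in lung, 2.76 to 3.76 for Plau between genotypes in skin, -0.49 to 1.40 for Plaur between genotypes in skin, 2.96 to 3.98 for Plau in the difference between tissues, -0.16 to 0.56 for Plat in the difference between tissues, -0.12 to 1.74 for Plaur in the difference between tissues, -1.36 to 0.50 for Plaur in wild-type tissues, 1.17 to 1.46 for Serpine2 in wild-type tissues, 2.24 to 2.96 for Serpine2 in Rel-null tissues. The ranges of log2 ratios were -0.025 to 0.34 for Plau to Plaur between genotypes in lung, -2.005 to 0.036 for Plau to Serpine2 in Rel-null tissues, -0.16 to 1.15 for Plau to Plat between genotypes in lung, -2.55 to 0.33 for Plau to Plaur in wild-type tissues. Those of mean log2 CPM for Plaur were -0.54 to 1.29 between genotypes in skin and -1.22 to 0.61 in wild-type tissues.

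Counts of genes called moved widely. In lung edgeR called 0 (1036 at an unadjusted p under 0.05), against 5 with no filter, 51 by DESeq2, 6 by limma-voom, 6 without the 4 libraries, 2 without Rel-null skin 19 and 20 and 2 in a fit of lung alone. In skin 0 (1024 unadjusted) became 3 with upper-quartile factors, 5 with library totals, 58 with no filter, 153 by DESeq2, 300 by limma-voom, 87 without the 4 libraries, 439 without the Xist libraries, 55 without Rel-null skin 19 and 20 and 2 in a fit of skin alone. For the difference between tissues 0 (766 unadjusted) became 31 with no filter, 100 by DESeq2, 174 by limma-voom, 31 without the 4 libraries, 365 without the Xist libraries and 31 without Rel-null skin 19 and 20. For wild-type tissues 487 became 782 with no filter, 1233 by DESeq2, 858 without the 4 libraries and 1044 without the Xist libraries. For Rel-null tissues 299 higher and 530 lower calls became 1770 by DESeq2, 4501 by limma-voom, 2171 without the 4 libraries and 409 without Rel-null skin 19 and 20. With 1 library left out the counts ran from 0 to 2 in lung, 0 to 421 in skin, 0 to 370 for the difference, 258 to 1050 in wild-type tissues and 410 to 1323 in Rel-null tissues. Wild-type skin 22, with 2663437 counts, gave the highest count for skin, for the difference and for wild-type tissues when left out. The cause of these shifts was not tested.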

Other observations

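The genes whose log2 CPM followed each member most closely over the 14 libraries are given as a description, since libraries of a group share their tissue and genotype. For Plau they were Perp (Pearson r 0.900), Proser2, Fdx1l, Rab3a and Psma3 (0.851). Perp, a membrane protein of desmosomes, read 119 to 203 CPM in Rel-null skin and at most 11.8 CPM in every other library. For Plaur they were Rnd1 (0.846), Ttc19, the epidermal growth factor family member Ereg (0.810), Tsku and Gtpbp6 (0.791).

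Plat and Serpine2 shared 2 of their 5 closest genes, Igsf10 and Srpx2. Igsf10 was closest to Plat (0.957), ahead of Myo6, Bahcc1, Ccdc127 and Srpx2 (0.942), and Lrp11 was closest to Serpine2 (0.978), ahead of Inhbb, Acsl3, Igsf10 (0.954) and Srpx2 (0.952). Plat and Serpine2 correlated with each other at r 0.923, and at 0.702 over the 13 libraries without Rel-null lung 7. Without that library r was 0.816 for Plat with Igsf10 and 0.932 for Serpine2 with Lrp11. With the shared gene Srpx2 it was then 0.747 for Plat and 0.846 for Serpine2. The 5 closest genes were ranked with Rel-null lung 7 included. The other member pairs lay between -0.21 and 0.29 over 14 libraries.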
